A study of Homo sapiens with 6 samples.

Results

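The BCL2 family genes described here are 10 genes whose proteins set the threshold for mitochondrial cell death: BCL2L1, MCL1, BAX, BAK1, BCL2L11, BID, BAD, BBC3, PMAIP1 and BIK. They were chosen by name, with earlier results of these data known, from the 12659 genes with FPKM values. FPKM are fragments per kilobase of transcript, scaled to library depth. Of the 10 genes, 9 had a row and all 9 passed the filter on low values. BIK was not analysed here. Polyadenylated RNA was taken from the human lung adenocarcinoma cell line NCI-H1650, labelled pre-LUAD, and from NCI-H1650Re, labelled post-SCLC, with 3 libraries per line and 6 in all. The series asks which genes changed with transformation to small cell lung cancer. The labels name no treatment or genotype for either line, do not say how NCI-H1650Re was derived or whether it is 1 clone, and do not say that the replicates were separate cultures, so the p-values reflect no more than the spread between these libraries, which may be technical.

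Proteins of the BCL2 family act at the outer mitochondrial membrane. The survival proteins BCL-XL and MCL-1 hold the effectors BAX and BAK in check, and the BH3-only proteins, which share only a short helix with the rest, either neutralise the survival proteins or engage the effectors directly. When BAX or BAK form pores, cytochrome c leaves the mitochondria and caspases are activated. In EGFR-mutant lung cancer cells, BIM, the product of BCL2L11, is known as a mediator of death after EGFR inhibition.

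Library depth was estimated at 17000000 to 22300000 fragments. Pearson correlations of log2 values between libraries ran from 0.988 to 0.997 within NCI-H1650, from 0.98 to 0.994 within NCI-H1650Re and from 0.959 to 0.97 between the lines, and in each line the pair of replicates 1 and 2 had the highest value, so replicate 3 stood apart. Of the epithelial markers, all 6 had values and 4 fell in limma (Benjamini-Hochberg adjusted p at most 0.05), against 13.9% of all tested genes. KRT19 went from 754 ± 97.6 to 68.7 ± 41.8 FPKM. KRT7 was at 712.46 to 942.12 FPKM in NCI-H1650 and 960.51 to 1101.73 in NCI-H1650Re and did not pass. Of 7 small cell and neuroendocrine markers, CHGA rose from 0.11, 0.35 and 1.23 FPKM in NCI-H1650 to 3.39 ± 1.55 in NCI-H1650Re. SYP, at 1.12 to 1.41 in NCI-H1650 and 1.37 to 1.79 in NCI-H1650Re, did not pass. The other 5 were not analysed here, nor were the 4 blood cell markers. Of 4 lung adenocarcinoma markers only MUC1 had values (37.06 to 45.75 and 21.6 to 42.08). Of 5 fibroblast and endothelial markers only COL1A1 had values (0.98 to 1.05 and 1.05 to 2.69). Neither MUC1 nor COL1A1 passed.

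The balance of BCL2 family transcripts differed between the lines. In NCI-H1650Re, BCL2L1, the gene of the survival protein BCL-XL, and BAX were higher, BCL2L11 and BID were lower, and BAD and PMAIP1 were higher by small margins. MCL1, BAK1 and BBC3 did not pass the test. The members and the lists below were chosen with earlier results of these data known. Shares set beside those of all tested genes are therefore descriptions and no test of a list. In counts, 4 of 9 members rose and 2 fell in limma (Benjamini-Hochberg adjusted p at most 0.05), against 30.5% of all 11764 tested genes in either direction, 16.6% higher and 13.9% lower. The median log2 change of the 9 was 0.20, against 0.03 over all tested genes, and the median absolute change was 0.37 against 0.19. After median-of-ratios scaling 2 rose and 2 fell, since BAD and PMAIP1 then missed the threshold. edgeR on rebuilt counts gave the same split, against 30.2% of the genes it tested. Without both replicate 3 libraries 4 rose and 2 fell, with MCL1 in the place of BAD, against 43.2% of tested genes; the log2 changes were then 0.83 for BCL2L1, 0.66 for BAX, -0.78 for BCL2L11 and -0.43 for BID. A log2 change of at least 1 in size was reached by 0 of the 9 members, against 3.06% of tested genes that did so and passed. Values of the lines did not overlap for 8 of the 9 members, against 47.2% of tested genes. With 3 libraries a line, permuting the labels (exact, two-sided) gives p = 0.1 at the least, and the same 8 members reached it. Every log2 change is the mean of log2(FPKM + 1) in NCI-H1650Re less that in NCI-H1650; adding 1 shrinks the changes of low genes.

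**Figure D1:**
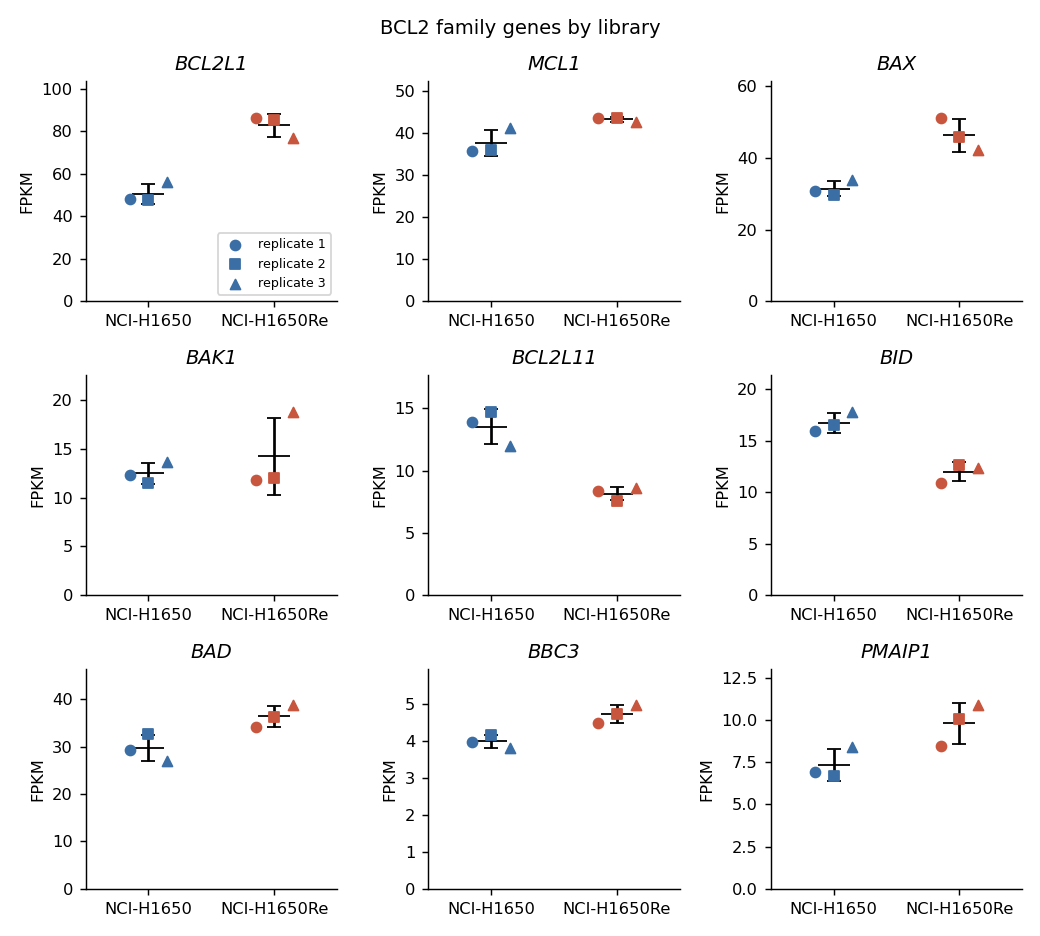
FPKM (y axis, from 0) of the 9 members in each library of NCI-H1650 (blue) and NCI-H1650Re (red); marker shapes give the replicate number, bars the mean and SD of 3 libraries. BCL2L1 lies at 47.57 to 55.95 and 76.63 to 86.38, BCL2L11 at 11.96 to 14.74 and 7.54 to 8.59, and only BAK1 has overlapping lines.

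BCL2L1 was the most abundant member in both lines. It lies on chromosome 20, 31664452 to 31723989, minus strand (GRCh38, as all gene positions here). Its FPKM was 48.21, 47.57 and 55.95 in NCI-H1650 replicates 1, 2 and 3, and 86.38, 85.32 and 76.63 in those of NCI-H1650Re. All NCI-H1650Re libraries were above all NCI-H1650 libraries, with the third of each line nearest to the other line. The ratio of means was 1.64 and the log2 change 0.70 (SE 0.09, 95% interval 0.50 to 0.90, limma adjusted p = 0.00146). Only 7.5% of tested genes had an absolute change at least as large. The authors' deposited table gives a log2 fold change of 0.68 with an FDR of 4.37e-07 for BCL2L1. On the opposite strand, exons of the antisense gene ABALON share 43% of the exonic bases of BCL2L1. The labels do not say whether strand was kept, so reads of the 2 genes may not be separable.

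MCL1, on chromosome 1, 150574551 to 150579738, encodes a short-lived survival protein. Its FPKM was 35.73, 35.99 and 41.13 in NCI-H1650 and 43.65, 43.65 and 42.65 in NCI-H1650Re. The lines did not overlap, but the gap between the highest NCI-H1650 and the lowest NCI-H1650Re library was small beside the spread within NCI-H1650. The log2 change was 0.20 (95% interval 0.03 to 0.37, limma adjusted p = 0.0746). NCI-H1650 replicate 3 set this outcome: without it the change was 0.27 and passed (limma adjusted p = 0.0262), as it did without both replicate 3 libraries (0.0142). BCL2L1 thus exceeded MCL1 in every library, and MCL1 amounted to 0.744 ± 0.0111 of BCL2L1 in NCI-H1650 and 0.525 ± 0.0280 in NCI-H1650Re, a ratio picked after the values were seen.

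Of the pore-forming effectors, BAX moved and BAK1 did not pass. BAX (chromosome 19, 48954815 to 48961798) was at 30.83, 29.74 and 33.75 FPKM in NCI-H1650 and at 51.25, 45.78 and 42.12 in NCI-H1650Re. The NCI-H1650Re libraries were all higher, and the rise was 1.48-fold (log2 change 0.54, SE 0.09, limma adjusted p = 0.00438). Thus a gene that promotes death rose beside the survival gene BCL2L1. BAK1 (chromosome 6, 33572547 to 33580293) was at 12.33, 11.51 and 13.62 in NCI-H1650 and at 11.83, 12.02 and 18.84 in NCI-H1650Re. Only NCI-H1650Re replicate 3 was clearly above the parental range, and the log2 change of 0.15 had a 95% interval from -0.24 to 0.54 (limma adjusted p = 0.53). Without that library the change was -0.058. GENCODE lists 2 pseudogenes named for BAK1, so some of its reads may be shared with them.

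BCL2L11 and BID, which encode BH3-only proteins able to engage BAX and BAK directly, were both lower. BCL2L11 (chromosome 2, 111119378 to 111168447) was at 13.89, 14.74 and 11.96 FPKM in NCI-H1650 and at 8.34, 7.54 and 8.59 in NCI-H1650Re. The highest NCI-H1650Re library was well under the lowest of NCI-H1650, and the mean fell to 0.603 of its parental level (log2 change -0.66, SE 0.09, limma adjusted p = 0.00239). BID (chromosome 22, 17734138 to 17774770), whose protein is cut by caspase-8 and links death receptors to mitochondria, was at 15.90, 16.50 and 17.83 in NCI-H1650 and at 10.93, 12.67 and 12.34 in NCI-H1650Re. Again the lines were separate, and the mean fell to 0.716 of its parental level (log2 change -0.45, SE 0.08, limma adjusted p = 0.00592). In the authors' deposited table the log2 fold changes are -0.76 for BCL2L11 (FDR 4.13e-08) and -0.51 for BID (FDR 0.00057). BCL2L11 shares 10.9% of its exonic bases with the opposite-strand transcript MIR4435-2HG. The table holds 1 FPKM value per gene, so the BIM splice forms are not separated.

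The BH3-only genes BAD, PMAIP1 and BBC3 lay higher in NCI-H1650Re by smaller amounts. BAD, whose protein is held inactive by growth factor signalling, was at 29.33, 32.63 and 27.05 FPKM in NCI-H1650 and at 34.20, 36.22 and 38.69 in NCI-H1650Re, without overlap (log2 change 0.29, 95% interval 0.09 to 0.49, limma adjusted p = 0.0407). PMAIP1, encoding the MCL-1 antagonist NOXA, was at 6.93, 6.68 and 8.43 in NCI-H1650 and at 8.49, 10.07 and 10.87 in NCI-H1650Re. Here NCI-H1650 replicate 3 and NCI-H1650Re replicate 1 nearly touched, and the log2 change was 0.37 (95% interval 0.11 to 0.64, limma adjusted p = 0.0419). BBC3, encoding PUMA, was lowest of all members, at 3.98, 4.16 and 3.81 in NCI-H1650 and 4.47, 4.72 and 4.96 in NCI-H1650Re, and did not pass (log2 change 0.20, 95% interval 0.02 to 0.37, limma adjusted p = 0.0834). An estimated 119 to 187 fragments per library lay behind BBC3 and 252 to 423 behind PMAIP1, against 2405 to 4804 behind BCL2L1.

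The calls of BAD and PMAIP1 were narrow. Among 16 other settings BAD passed in 6; it missed without parental replicate 1 or 3 (limma adjusted p = 0.107 and 0.0977), without NCI-H1650Re replicate 2 or 3 (0.12 and 0.0712) and under 6 further settings. PMAIP1 passed in 10 and missed without parental replicate 1 or 2 (limma adjusted p = 0.124 and 0.15) and without NCI-H1650Re replicate 2 or 3 (0.131 and 0.0747). The authors' deposited table gives an FDR of 0.109 for BAD and 0.0931 for PMAIP1. It has an FDR of at most 0.05 for 4 of the 9 members, BCL2L1, BAX, BCL2L11 and BID, against 27.9% of its genes. It marks 0 of the 9 as regulated. Among the genes so marked the smallest absolute log2 fold change was 1.001 and the largest FDR 0.00972. BAD shares 23.7% of its exonic bases with GPR137 on the opposite strand.

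**Figure D2:**
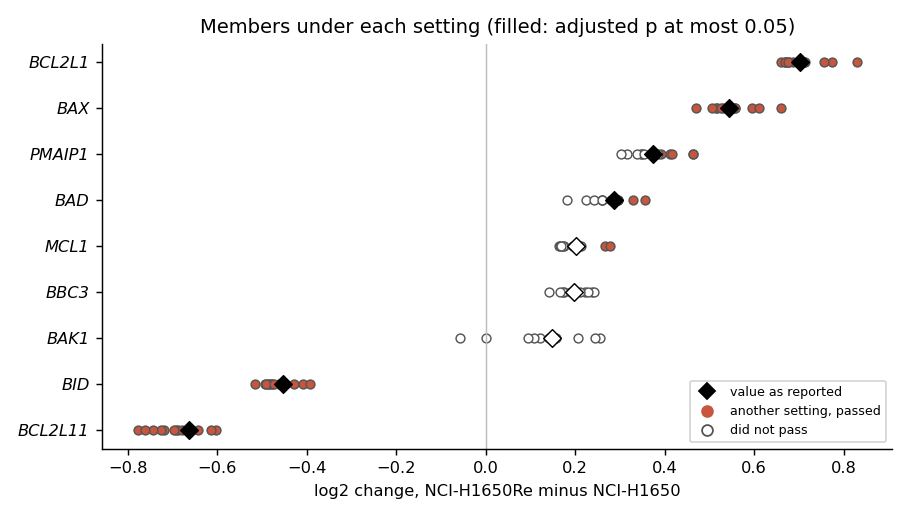
Log2 change (x axis, NCI-H1650Re minus NCI-H1650) of each member in limma as reported (diamonds) and under the other settings (circles); filled symbols passed an adjusted p of 0.05. BCL2L1, BAX, BID and BCL2L11 passed under all 16, BBC3 and BAK1 under none of those run.

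Per unit of transcript length, the order of the members in NCI-H1650 was BCL2L1, MCL1, BAX, BAD, BID, BCL2L11, BAK1, PMAIP1 and BBC3. There the libraries of BAX and BAD overlapped, as did those of BCL2L11 and BAK1. In NCI-H1650Re the order was BCL2L1, BAX, MCL1, BAD, BAK1, BID, PMAIP1, BCL2L11 and BBC3, with overlap between BAX and MCL1, between BAK1 and BID, and between PMAIP1 and BCL2L11. BCL2L11 went from the sixth to the eighth place.

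Ratios within a library do not depend on how libraries are scaled to each other, and they are given as a description. The FPKM ratio of BCL2L11 to BCL2L1 was 0.288, 0.310 and 0.214 in NCI-H1650 replicates 1, 2 and 3 and 0.0966, 0.0884 and 0.112 in those of NCI-H1650Re. The lines were far apart, and the mean ratio was 2.73-fold higher in NCI-H1650 (0.271 ± 0.0504 against 0.0990 ± 0.0121, SD, n = 3). That gap combines the fall of BCL2L11 and the rise of BCL2L1 given above and is no separate result. BBC3 to BCL2L1 was 0.0794 ± 0.0101 in NCI-H1650 and 0.0573 ± 0.0067 in NCI-H1650Re, also without overlap, although BBC3 itself was not lower. BAX to BCL2L1 was 0.623 ± 0.0183 and 0.560 ± 0.0297, a much smaller gap, since both genes rose. PMAIP1 to MCL1 was 0.195 ± 0.0097 and 0.227 ± 0.0304, and its libraries overlapped. These are ratios of transcripts and say nothing of protein levels.

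**Figure D3:**
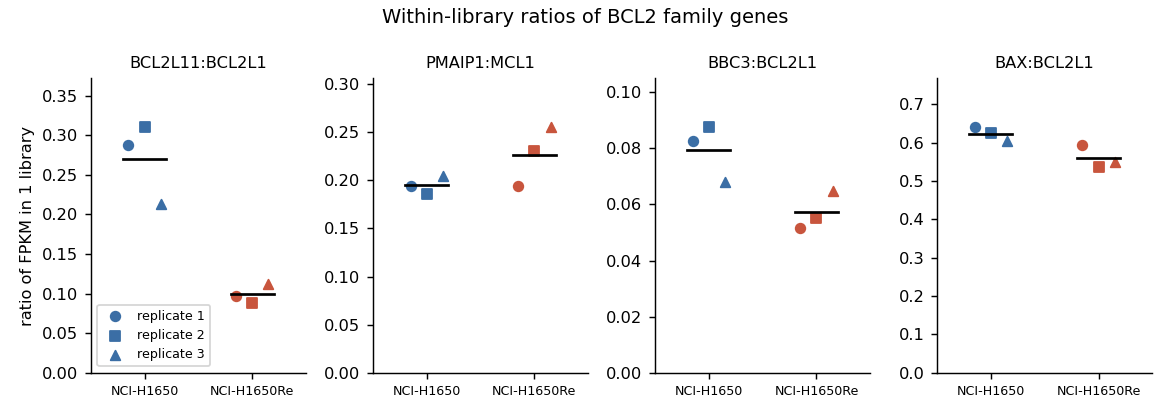
FPKM ratios (y axes, from 0) within each library for BCL2L11:BCL2L1, PMAIP1:MCL1, BBC3:BCL2L1 and BAX:BCL2L1 in NCI-H1650 (blue) and NCI-H1650Re (red), with shapes for replicates and bars for means. BCL2L11:BCL2L1 separates the lines most, at 0.214 to 0.310 against 0.0884 to 0.112.

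Among the other BCL2 family genes, BMF, BNIP3, BNIP3L and BCL2L13 were lower in NCI-H1650Re. Of 13 listed, 7 had values and were tested. In limma 4 fell, 0 rose and 3 did not pass, against 13.9% of all tested genes lower and 16.6% higher. The counts were the same in edgeR on rebuilt counts. At an unadjusted p under 0.05, 1 of the 7 was higher. The median log2 change was -0.33, against 0.03 over all tested genes. BCL2 itself, BCL2L2 and BCL2A1 were not analysed here. BMF, a BH3-only gene whose protein binds the cytoskeletal motor complexes, was at 9.56, 11.05 and 8.98 FPKM in NCI-H1650 and at 2.06, 2.30 and 2.90 in NCI-H1650Re. No library came near the other line, and the log2 change of -1.67 (SE 0.12, limma adjusted p = 0.000227) was larger in size than that of any member. BMF to BCL2L1, a ratio added after the values were seen, was 0.197 ± 0.0359 in NCI-H1650 and 0.0296 ± 0.00735 in NCI-H1650Re.

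BNIP3 and BNIP3L, hypoxia-induced mitophagy receptors with a BH3-like stretch, fell as well. BNIP3 was at 34.87, 35.66 and 28.40 FPKM in NCI-H1650 and at 12.01, 14.27 and 13.43 in NCI-H1650Re (log2 change -1.25, SE 0.11, limma adjusted p = 0.000394). BNIP3L was at 21.73, 21.83 and 17.68 and at 10.66, 13.22 and 14.15 (log2 change -0.65, SE 0.12, limma adjusted p = 0.00725). Both lines were fully apart for each; GENCODE lists 39 pseudogenes named for BNIP3, and its value is uncertain to that extent. BCL2L13, a mitochondrial family member, fell by 0.32 on the log2 scale (limma adjusted p = 0.0466), a call lost when any library except NCI-H1650Re replicate 3 was left out (limma adjusted p 0.0941 to 0.134).

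BCL2L12 was at 22.39 to 23.73 FPKM and 23.76 to 30.21, BOK at 16.25 to 19.54 and 18.87 to 21.22, and HRK at 1.19 to 1.59 and 0.32 to 1.90; none of them passed. NCI-H1650Re replicate 3 decided the first and last: without it BCL2L12 was higher (limma adjusted p = 0.00627) and HRK lower (0.0116). BCL2L12 shares 33.1% of its exonic bases with IRF3 on the opposite strand, which was at 23.43 to 30.26 and 24.68 to 26.41.

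**Figure D4:**
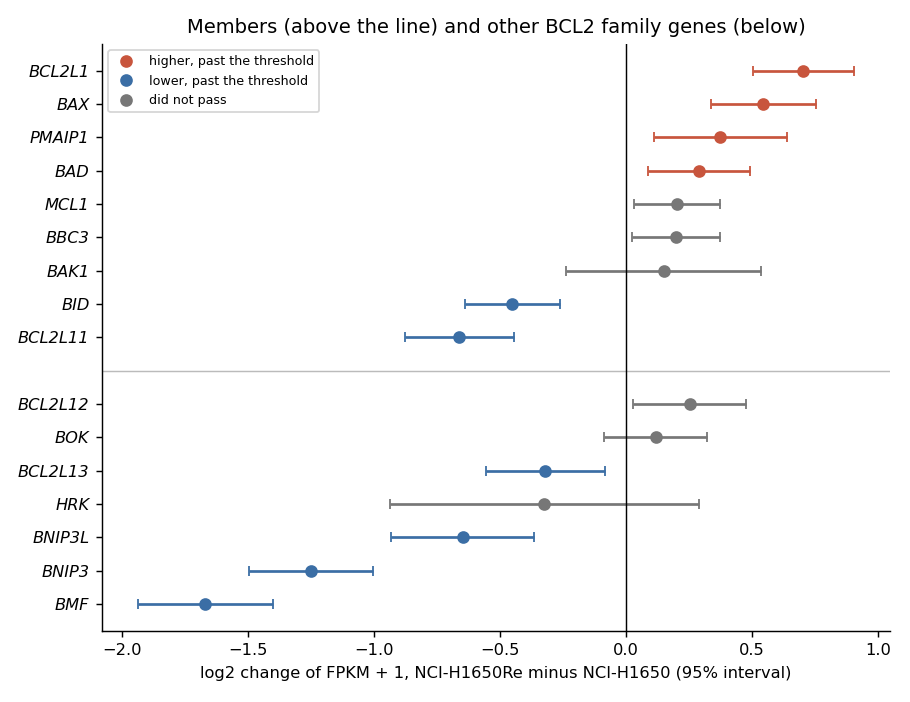
Log2 change of FPKM + 1 (x axis) with 95% intervals for the 9 members and the 7 other BCL2 family genes; red rose, blue fell and grey did not pass in limma. BCL2L1 is highest at 0.70 and BMF lowest at -1.67.

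Promoter letters are shown for BAX, BCL2L11, BMF and BNIP3, which changed and which differ in the motifs they hold; the 4 were picked after the matches were seen. Each line gives the 250 bases before the RefSeq start nearest to the principal GENCODE transcript (GRCh38.p14), read 5′ to 3′ on the gene's strand, with motif matches in capitals. The motifs searched, on both strands, were the E-box CACGTG, the hypoxia core ACGTG, the forkhead motif GTAAACA, the AP-1 motif TGANTCA and TGATGNAA, bound by C/EBP and ATF factors; every E-box also holds the hypoxia core.
BAX, chr19:48954625-48954874, plus strand: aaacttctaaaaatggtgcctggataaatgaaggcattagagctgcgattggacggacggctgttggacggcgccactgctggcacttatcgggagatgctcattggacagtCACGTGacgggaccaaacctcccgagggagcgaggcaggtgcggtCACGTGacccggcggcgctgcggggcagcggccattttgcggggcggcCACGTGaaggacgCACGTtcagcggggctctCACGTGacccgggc
BCL2L11, chr2:111120664-111120913, plus strand: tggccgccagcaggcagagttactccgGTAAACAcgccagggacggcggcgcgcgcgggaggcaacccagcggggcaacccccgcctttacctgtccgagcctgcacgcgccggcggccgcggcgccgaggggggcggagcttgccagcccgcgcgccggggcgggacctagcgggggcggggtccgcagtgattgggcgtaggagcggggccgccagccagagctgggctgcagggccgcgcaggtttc
BMF, chr15:40108880-40109129, minus strand: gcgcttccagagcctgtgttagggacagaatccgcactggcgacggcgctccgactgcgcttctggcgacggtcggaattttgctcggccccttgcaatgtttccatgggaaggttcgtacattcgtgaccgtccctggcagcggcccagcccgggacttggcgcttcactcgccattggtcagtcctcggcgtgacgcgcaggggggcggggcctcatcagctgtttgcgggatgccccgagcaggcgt
BNIP3, chr10:131981924-131982173, minus strand: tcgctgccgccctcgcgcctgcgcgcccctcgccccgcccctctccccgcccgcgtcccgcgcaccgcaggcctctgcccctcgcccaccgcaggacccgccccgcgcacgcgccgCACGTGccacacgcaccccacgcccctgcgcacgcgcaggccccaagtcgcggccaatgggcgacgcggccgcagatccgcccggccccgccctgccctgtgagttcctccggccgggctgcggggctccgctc

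BAX held 4 E-boxes, which 6.34% of 35116 promoter windows of that length hold at least once, and 1 further hypoxia core. BCL2L11 held 1 forkhead match, found in 2.98% of windows, at position -223 from the start. BMF held none of the 5 motifs. BNIP3 held 1 E-box and so the hypoxia core, found in 18.5% of windows. Among the other members with a window, BID, which fell, also held 1 E-box, and BBC3, which did not pass, held 1 E-box and 1 AP-1 match (AP-1 in 6.57% of windows) in a window 1473 bases from its principal start. BCL2L1, BAK1, BAD and PMAIP1 held none, and MCL1 was not analysed here. GC content was 62.8% for BAX, 76.8% for BCL2L11, 65.2% for BMF and 81.6% for BNIP3, against a median of 58%. A match describes letters only; binding was not measured.

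Among 12 transcription factors known to act on these genes, 11 had values and 10 were tested. In limma 3 rose, 0 fell and 7 did not pass (median log2 change 0.11). That share is near the 30.5% of all tested genes called in either direction. edgeR on rebuilt counts also had 3 higher and 0 lower. At an unadjusted limma p under 0.05, 4 were higher and 2, FOXO3 and STAT3, were lower. The higher ones included NFKB1, at 8.18 to 10.04 FPKM in NCI-H1650 and 11.05 to 12.18 in NCI-H1650Re. NFKB1 did not pass (log2 change 0.28, limma adjusted p = 0.0513). ATF4, the effector of the integrated stress response, was at 102.69, 100.65 and 102.60 FPKM in NCI-H1650 and at 211.75, 235.46 and 233.67 in NCI-H1650Re, 2.23-fold higher on the mean (log2 change 1.15, SE 0.07, limma adjusted p = 0.000172). MYC, which can drive both growth and apoptosis, was higher by 0.58 on the log2 scale (limma adjusted p = 0.00481). The NF-kB subunit RELA, an activator of BCL2L1, was higher by 0.25 (limma adjusted p = 0.0273), a call lost without parental replicate 1 or 2 or NCI-H1650Re replicate 2 (0.089 to 0.121). FOXO3, an activator of BCL2L11, was at 4.89 to 5.34 FPKM and 3.54 to 4.77 (log2 change -0.25, limma adjusted p = 0.0979), and STAT3, another activator of BCL2L1, at 61.47 to 66.85 and 53.02 to 58.74 (-0.19, 0.0792). Neither passed.

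No apoptosome or caspase gene passed the test, which does not show that their levels were equal. Of 8 tested apoptosome and caspase genes, 0 passed in limma and 0 in edgeR on rebuilt counts, and 1, CYCS, had an unadjusted limma p under 0.05. Over all tested genes, 30.5% passed in limma. CYCS, encoding cytochrome c, was at 63.01 to 72.29 FPKM in NCI-H1650 and 70.44 to 88.02 in NCI-H1650Re (log2 change 0.26, limma adjusted p = 0.0903). APAF1, the apoptosome scaffold, was at 3.09 to 3.98 and 3.35 to 3.58. Of 7 inhibitor of apoptosis genes and antagonists, 2 rose and 0 fell in limma, against 16.6% higher and 13.9% lower over all tested genes. At an unadjusted limma p under 0.05, 0 were lower. With edgeR on rebuilt counts 1 was higher and 0 lower. BIRC5, encoding survivin, which also serves in mitosis, rose from 43.3 ± 3.87 to 65.9 ± 10.1 FPKM (log2 change 0.59, limma adjusted p = 0.00968). HTRA2, a mitochondrial protease that antagonises these inhibitors, rose from 12.5 ± 0.811 to 14.9 ± 0.621 (0.24, 0.0402), a call lost in 10 of the 16 other settings.

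Of 10 death receptor and adaptor genes, 2 rose, 1 fell and 7 did not pass in limma, against 30.5% of all tested genes called in either direction. edgeR on rebuilt counts had 1 higher and 2 lower, and at an unadjusted limma p under 0.05 there were 2 each way. TNFRSF1A, the main TNF receptor, was at 71.43, 74.75 and 72.22 FPKM in NCI-H1650 and 66.29, 61.61 and 63.75 in NCI-H1650Re, without overlap, and did not pass in limma (log2 change -0.19, adjusted p = 0.0552); edgeR called it lower. TNFRSF10A, a receptor of the ligand TRAIL, was at 3.17, 3.14 and 3.43 FPKM in NCI-H1650 and 5.89, 5.55 and 4.97 in NCI-H1650Re (log2 change 0.61, limma adjusted p = 0.00228). The adaptor FADD was higher by 0.28 with a limma adjusted p of 0.0494, and missed the threshold in 12 of the 16 other settings. TRADD, an adaptor of the TNF receptor, was at 14.47, 14.89 and 14.71 and fell to 4.29, 5.47 and 4.44 (log2 change -1.46, limma adjusted p = 0.000181). Its 24 nearest tested neighbours on chromosome 16 had a median log2 change of -0.52, and 17 of them fell and 0 rose. Of 3 mitochondrial porins, VDAC1 fell from 181 ± 15.4 to 127 ± 8.65 FPKM (log2 change -0.51, limma adjusted p = 0.0047), while VDAC2, which holds BAK at the membrane, was at 71.60 to 75.12 and 77.54 to 81.33 and did not pass. The 24 neighbours of VDAC1 on chromosome 5 had a median log2 change of -0.24, and 11 of them fell and 1 rose. Over all tested genes, 13.9% fell and 16.6% rose. Of 5 tested ubiquitin enzymes acting on MCL-1 or BIM, 0 rose, 1 fell and 4 did not pass in limma, against 30.5% of all tested genes called. USP9X, which stabilises MCL-1, fell by 0.32 on the log2 scale (limma adjusted p = 0.0212). This call was lost when replicate 1 or 2 of either line was left out (0.0559 to 0.0912). FBXW7 was also lower without overlap but did not pass (log2 change -0.21, limma adjusted p = 0.0956).

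**Figure D5:**
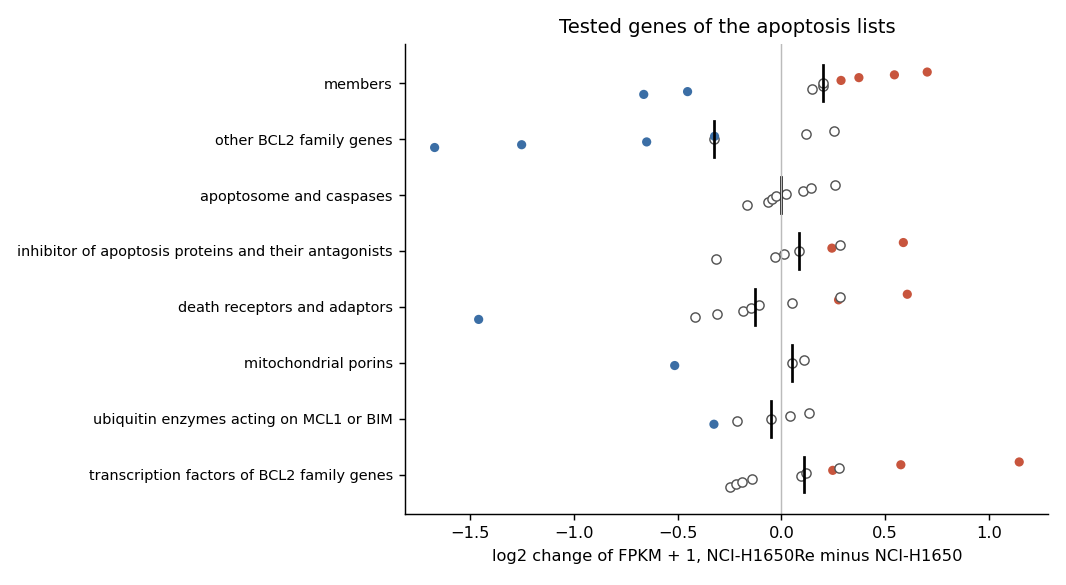
Log2 change of FPKM + 1 (x axis, NCI-H1650Re minus NCI-H1650) of each tested gene, 1 row per list; red rose, blue fell and open circles did not pass in limma, and vertical bars are list medians. Apoptosome and caspase genes lie between -0.16 and 0.26 with none past the threshold, whereas the other BCL2 family genes reach -1.67.

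Position along the chromosome was compared with the 12 tested genes on either side. Over all tested genes, 16.6% were higher and 13.9% lower in limma. For the members, BMF and E2F1 the windows of neighbours spanned from 0.743 megabases around BAX to 13.5 around PMAIP1. Around BCL2L1 the median log2 change of 24 neighbours was 0.10, with 8 higher and 3 lower, over 9.22 megabases (23626706 to 32850405). In a narrower, partly overlapping window around E2F1 on the same chromosome (32207880 to 34825649) it was 0.18, with 10 higher and 0 lower. Around BAX it was 0.19, with 5 higher and 1 lower. Around BCL2L11 it was 0.15, with 6 higher and 3 lower, and around BID, over the 16 available, 0.02, with 2 each way. These are descriptions, and whether a member departs from its neighbours was not tested. Around BBC3 the median was 0.24 with 11 of 24 higher, as large as the change of BBC3 itself (0.20). Around PMAIP1 it was -0.20, with 8 of 24 lower and 0 higher, opposite to PMAIP1. Around BMF it was 0.02. Around BAK1 it was -0.30, with 0 higher and 6 lower. Around MCL1 it was -0.06, with 3 higher and 2 lower, and around BAD -0.10, with 2 higher and 5 lower.

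Across the 6 libraries, the genes whose centred log2 values lay closest to BCL2L1 among 11036 named genes were RNF166, MB21D2 and ACOT7, with root mean square differences of 0.02, 0.04 and 0.04, against a median of 0.37. Those closest to BCL2L11 were CXXC5, HDAC3 and MARCH8, at 0.03, 0.03 and 0.04 (median 0.38). CXXC5, for example, was at 70.68, 78.33 and 62.95 FPKM in NCI-H1650 and 47.15, 41.27 and 46.93 in NCI-H1650Re. The 6 points fall in 2 lines, so they are not independent. The genes named were picked as the closest, so their place below the median follows from the choice and is no support.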

How the data were processed

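Polyadenylated RNA of 2 lines was sequenced in 3 libraries each. FPKM values for 12659 genes were deposited by the authors. RSEM, HISAT2, Bowtie2 and DESeq2 appear, with no version, in the submitters' processing notes, as does the mouse build mm10, although the identifiers are human; build and row filter are otherwise not given in the sources used here. Counts were deposited by the authors for 860 marked genes only, none of them a member, and served to estimate depth (17000000 to 22300000 fragments per library, from 24 genes). The deposited table also holds the authors' own log2 fold change and FDR, an adjusted p-value.

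Members were matched by gene name, other lists by name or Ensembl identifier. The 11764 genes whose mean reached 1 FPKM in one line or both were tested on log2(FPKM + 1) with limma and a variance trend, the line being the only term. Benjamini-Hochberg adjustment ran over all of them, with a threshold of 0.05. The members and lists were chosen with earlier results of these data known. Every member is described. Of the other lists up to 4 genes past the threshold are named, and of the other BCL2 family genes all with values. FOXO3, STAT3, NFKB1, FBXW7, E2F1, CYCS, APAF1, VDAC2, TNFRSF1A and the genes of the closing observations did not pass. They were picked after their values were seen. Alternatives were 2 smaller pseudocounts (0.1, 0.01), filtering at 5 FPKM or not at all, 2 scalings, a replicate block, no variance trend, each library left out, both replicate 3 libraries left out and, added after seeing the data, edgeR with TMM on counts rebuilt by multiplying FPKM with depth and transcript length. These came within 10% or 1 count of 83.6% of the deposited counts. Promoter sequences are RefSeq's (GRCh38.p14); gene positions and lengths are those of GENCODE 29 (GRCh38). The limma fit was tested on simulated data. Versions were R 4.3.3, limma 3.58.1, edgeR 4.0.16, Python 3.11.15, SciPy 1.17.1 and matplotlib 3.10.9.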

Additional observations from a re-analysis of the deposited data

How the results depend on the processing

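BCL2L1, BAX, BCL2L11 and BID kept their direction and passed under all 16 settings, with log2 changes of 0.66 to 0.83, 0.47 to 0.66, -0.78 to -0.60 and -0.52 to -0.39. The count of members past the threshold was 6 as reported, 4 under edgeR on rebuilt counts or median-of-ratios scaling, 5 with quantile normalization, the replicate block or no variance trend, and 4 to 6 with 1 library left out; BAD and PMAIP1 were lost most often. BAK1 changed sign without NCI-H1650Re replicate 3 (its log2 change ran from -0.058 to 0.256 with 1 library left out). Over all genes the count was 3587 as reported and 1785 to 4478 with 1 library left out, lowest without NCI-H1650 replicate 2, then NCI-H1650Re replicate 2 (1898) and NCI-H1650 replicate 1 (2386); the cause was not tested. With the replicate block 3522 genes passed. Replicate numbers were not taken to pair the libraries: deviations of same-numbered libraries correlated at 0.173, -0.037 and 0.211, and not every library correlated best with its own number. Estimated fragments were fewest for HRK (38 to 199) and BBC3 (119 to 187) among the family genes.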

Other observations

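Several death pathway genes varied more within NCI-H1650 than between the lines. In replicate order, the FPKM of XAF1, an interferon-induced antagonist of XIAP, was 9.56, 14.05 and 38.18 for NCI-H1650, then 8.80, 13.41 and 21.92 for NCI-H1650Re. TNFSF10, encoding the death ligand TRAIL, was at 0.69, 1.11 and 2.86 and at 0.48, 0.78 and 1.19, and FAS at 0.94, 1.39 and 2.41 and at 1.15, 1.37 and 1.47. In each line the third library was highest for all 3 genes, and none of them passed limma between the lines (adjusted p = 0.65, 0.316 and 0.699).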
